A study of Mus musculus with 8 samples.

Results

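The genes described are those of the proteasome and of the proteins that activate, inhibit or assemble it. They were taken by symbol: every gene on the array whose symbol starts with Psma to Psmg and a digit, read from probe sets with a single gene symbol, with the probe set of the highest mean standing for a gene that has several. This gave 50 genes of 19938 tested. Of the 50, 48 encode proteasome subunits, activators, inhibitors or assembly chaperones, and 2, Psmc3ip and Psme3ip1, match by letters only, since they encode partners of subunits. Picking genes by symbol uses no measured value. Measured levels over all arrays, without regard to group, decided only which probe set stood for a gene with several.

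Myocardium was profiled from 8 male mice of the strain given as CH3, 8 to 10 weeks old and weighing 25 to 30 g, on whole-transcript arrays of 1 colour. In the DJ-1 group (4 hearts), recombinant DJ-1 protein was given, by a route the labels do not name, 1 hour ahead of ligation of the left anterior descending (LAD) coronary artery. In the placebo group (4 hearts), phosphate-buffered saline took its place. Both groups then went through 45 minutes of occlusion and 2 hours of reperfusion, so no heart here was free of ischaemia and no comparison with uninjured myocardium can be made. DJ-1, the product of Park7, is a small redox-sensitive protein. The comparison asked which transcripts differed when DJ-1 had been given before the injury.

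The proteasome breaks down proteins that carry ubiquitin chains. Its core particle is a barrel of alpha and beta rings with the proteolytic sites inside, and a regulatory particle of ATPases and non-ATPase subunits recognises, unfolds and feeds in the substrate. Standard beta subunits encoded by Psmb5, Psmb6 and Psmb7 carry the chymotrypsin-like, caspase-like and trypsin-like sites. In cells exposed to interferon-gamma, and constantly in many blood cells, the products of Psmb8, Psmb9 and Psmb10 replace them and form the immunoproteasome, which is known for making peptides for class I antigen presentation. In heart muscle the proteasome clears damaged sarcomeric and oxidised proteins, and a loss of its activity in ischaemia and reperfusion has often been described.

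The standard and inducible catalytic genes differ in how they are driven, which is why stretches of both kinds of promoter are shown. The lines give the 120 bases before the annotated start of the transcript, 5′ to 3′ on the coding strand, from RefSeq (GRCm38.p6), with Psmb8 and Psmb9 each followed by the standard counterpart. The stretch before Psmb10, which holds none of the motifs searched, is not printed.
Psmb8, chr17:34198075-34198194 (+ strand): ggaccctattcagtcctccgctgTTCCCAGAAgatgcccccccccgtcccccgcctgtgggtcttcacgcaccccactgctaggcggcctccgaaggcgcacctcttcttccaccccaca
Psmb5, chr14:54617996-54618115 (- strand): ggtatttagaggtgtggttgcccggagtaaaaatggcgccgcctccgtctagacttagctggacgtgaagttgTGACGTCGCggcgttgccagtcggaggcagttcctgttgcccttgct
Psmb9, chr17:34187331-34187450 (- strand): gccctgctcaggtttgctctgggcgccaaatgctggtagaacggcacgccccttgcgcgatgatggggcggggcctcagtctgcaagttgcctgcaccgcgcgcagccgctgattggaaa
Psmb6, chr11:70525237-70525356 (+ strand): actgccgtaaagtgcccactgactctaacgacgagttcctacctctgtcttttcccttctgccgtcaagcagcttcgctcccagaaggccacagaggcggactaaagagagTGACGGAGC
Capitals mark the motifs searched on both strands: TGACNNNGC, the core of the antioxidant response element that Nfe2l1 and Nfe2l2 bind, GAAA followed after any 2 bases by GAAA, the core of the interferon-stimulated response element, and TTCNNNGAA, the core of the gamma-activated site. Psmb5 and Psmb6 each hold the antioxidant core in these windows, Psmb8 holds the gamma-activated core, and the Psmb9 window holds none of the 3 letter patterns. Over the full windows of the table, which run from 250 bases before to 50 bases after a start, 42 of the 50 genes had a promoter, and Psmb7 was among those not matched. The antioxidant core lay in 13% of their 46 windows against 12.4% of all 32851 windows in the table. The interferon-stimulated core lay in 10.9% against 3.44%, in Psmb3, Psmd4, Psmd9, Psme1 and Psmg4. The gamma-activated core lay in 6.52% against 8.3%, in Psmb8, Psmd2 and Psmg1. A match in letters describes the sequence and shows no binding.

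Values are log2 expression per probe set. The brightness of different probe sets depends on their probes, so levels are not compared between genes. The array medians lay between 5.25 and 5.35, and correlations between arrays between 0.978 and 0.987. On the first principal component, which held 26.3% of the variance, DJ-1 replicates 3 and 4 stood at 19.6 and 23.5, and the other 6 arrays between -15 and 5.31. Leaving them out turned the sign of the difference of 20 of the 50 genes, from lower to higher in each case, and counts by role that changed with them are given both ways. This setting singles out arrays that stood apart in these same data, so it is a description and no test. Olfactory receptor genes, hardly transcribed in heart, marked the background: their 95th percentile was 4.74. Of the 48 proteasome genes, 46 had a mean level above it, and the exceptions were Psma8 and Psmb11. The heart's own identity was plain in both groups, with Myh6 at 12.85 in DJ-1 and 12.91 in placebo hearts, and all 10 cardiomyocyte markers, 8 endothelial markers and 8 general leukocyte markers were above background.

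No gene of the proteasome family passed the test between DJ-1 and placebo hearts, and the differences were spread on both sides of 0. Among the 50 genes, 0 passed an adjusted p of 0.05 in limma (0% of all genes did), 0 had an unadjusted p under 0.05 (5.99% of all genes did), and 0 had groups that did not overlap (3.22% of all genes did). Without moderated variances the count at an unadjusted p under 0.05 was also 0, and with an intensity trend it was 1, Psme4 (limma adjusted p = 0.83). As a log2 difference of DJ-1 minus placebo, the median over the 48 proteasome genes was -0.0055, beside 0.0082 over all genes tested. With genes above background only, the order was the other way, at -0.0083 for 46 proteasome genes beside -0.014 for all 13693. Of the 48, 20 averaged higher after DJ-1, a count that was 29 with cyclic loess, 25 with quantile normalization and 13 with each array centred on its median. Over all genes the median difference in these settings was 0.0016, 0.0034 and -0.034. Among all 19938 genes 10470 averaged higher with the values as deposited. Above background 6223 of 13693 genes did, beside 18 of 46 proteasome genes. The differences lay between -0.25 for Psmb8 and 0.26 for Psmb11. The array measures tissue RNA as a whole, so fewer cells of a type and less RNA per cell cannot be told apart.

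A p above the threshold does not show that levels were equal, and the intervals give how large a difference the data allow. The 95% confidence interval of the difference lay wholly between -0.5 and 0.5 on the log2 scale, that is within 1.41-fold either way, for 45 of the 48 proteasome genes, which is 93.8%. Over all genes the share was 82.9%. Among genes above background it was 87.1%, beside 95.7% of the proteasome genes above background. The 3 genes whose intervals reached further were Psmb8, Psmb4 and Psmb11. The median standard error was 0.107 over the 48 genes and 0.117 over all genes, so differences much smaller than these limits were not detectable with 4 hearts a group. Spread between hearts of a group (pooled SD) had a median of 0.139 over the 46 genes above background, from 0.0591 for Psmf1 to 0.334 for Psmb8, beside 0.152 over all 13693 genes above background.

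**Figure D1:**
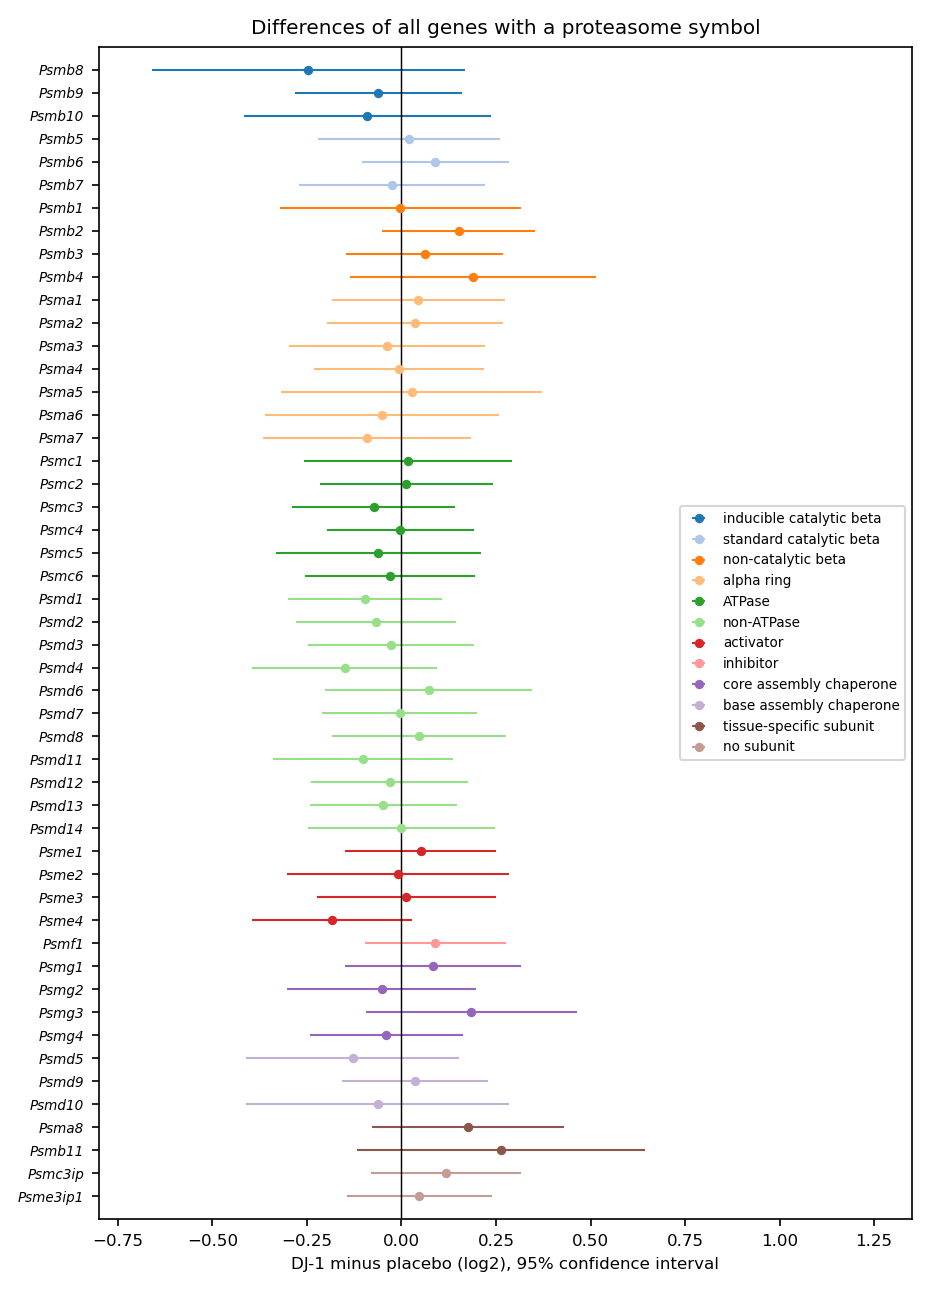
Log2 difference of each of the 50 genes, DJ-1 minus placebo (horizontal axis), with the 95% confidence interval of the limma fit as a line and colours for the role of the gene. Points lie between -0.25 and 0.26, every interval crosses 0, and that of Psmb8 is the widest.

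The inducible catalytic genes were all lower on average in DJ-1 hearts, by 0.061 to 0.25 on the log2 scale, and none of the 3 passed. Without DJ-1 replicates 3 and 4 only Psmb9 had a lower mean. Psmb8, whose product has the chymotrypsin-like site of the immunoproteasome, was at 5.83, 5.74, 5.02 and 5.48 in DJ-1 replicates 1 to 4 and at 5.60, 6.21, 5.64 and 5.61 in placebo replicates 1 to 4. The lowest heart was DJ-1 replicate 3 and the highest placebo replicate 2, and DJ-1 replicates 1 and 2 lay above the other 3 placebo hearts. Its difference was -0.25 (SE 0.189, 95% confidence interval -0.66 to 0.17, limma adjusted p = 0.847), which allows anything between 0.632-fold and 1.12-fold. Leaving out each array in turn moved it between -0.35 (DJ-1 replicate 1 out) and -0.08 (DJ-1 replicate 3 out), and with both DJ-1 replicates 3 and 4 out it was 0.022.

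Psmb9, which encodes the inducible subunit in the place of Psmb6, stood at 6.83, 6.84, 7.07 and 6.98 in DJ-1 replicates 1 to 4. In placebo replicates 1 to 4 it was at 6.80, 7.02, 7.07 and 7.07. All 4 DJ-1 values lay within the placebo range. The difference was -0.061 (SE 0.101, 95% confidence interval -0.28 to 0.16, limma adjusted p = 0.931), and it was -0.156 without DJ-1 replicates 3 and 4.

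Psmb10, the inducible counterpart of Psmb7, was at 8.49, 8.48, 8.27 and 7.95 in DJ-1 replicates 1 to 4, against 8.66, 8.10, 8.48 and 8.32 in placebo replicates 1 to 4. DJ-1 replicate 4 was the lowest heart, and the other 3 lay within the placebo range. Its difference was -0.09 (SE 0.149, 95% confidence interval -0.42 to 0.24, limma adjusted p = 0.931), and it was 0.026 without DJ-1 replicate 4 and 0.095 with replicate 3 left out as well. The 3 inducible genes did not follow each other from heart to heart: placebo replicate 2 was the highest of all for Psmb8 and the second lowest for Psmb10, and DJ-1 replicate 3 was the lowest for Psmb8 and shared the highest level of Psmb9 to 2 decimals.

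The standard catalytic genes differed by -0.026 to 0.09, and none of the 3 passed. Psmb5, which carries the chymotrypsin-like site, was at 11.38, 11.53, 11.44 and 11.31 in DJ-1 replicates 1 to 4 and at 11.65, 11.21, 11.34 and 11.39 in placebo replicates 1 to 4. Every DJ-1 value fell inside the placebo range, and the difference was 0.02 (SE 0.11, 95% confidence interval -0.22 to 0.26, limma adjusted p = 0.982). Psmb6, with the caspase-like site, was at 9.56, 9.45, 9.30 and 9.48 in DJ-1 hearts and at 9.35, 9.34, 9.37 and 9.37 in placebo hearts. Here 3 DJ-1 hearts lay above all placebo hearts and replicate 3 lay below them, and the difference was 0.09 (SE 0.0888, 95% confidence interval -0.105 to 0.28, limma adjusted p = 0.879). Psmb7, with the trypsin-like site, was at 9.89, 9.85, 9.75 and 9.42 in DJ-1 hearts and at 9.69, 9.74, 9.80 and 9.78 in placebo hearts. DJ-1 replicates 1 and 2 lay above the placebo range and replicate 4 below it, which left a difference of -0.026 (SE 0.112, 95% confidence interval -0.27 to 0.22, limma adjusted p = 0.974). Leaving out DJ-1 replicates 3 and 4 gave 0.06 for Psmb5, 0.15 for Psmb6 and 0.115 for Psmb7.

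**Figure D2:**
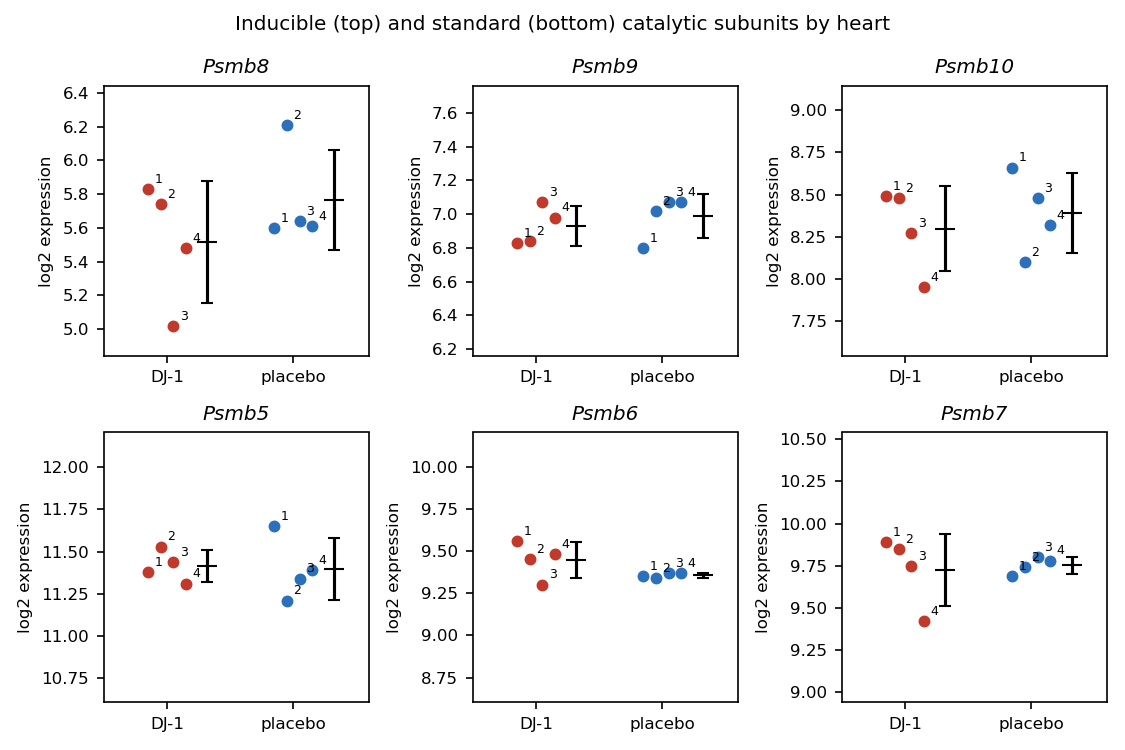
Log2 expression of the inducible genes Psmb8, Psmb9 and Psmb10 (top row) and the standard genes Psmb5, Psmb6 and Psmb7 (bottom row) in each heart, numbered by replicate, with the group mean and SD as bars (n = 4 each). Every panel spans the same height on the log2 scale, and the groups overlap in all 6 genes.

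Set against each other, the inducible genes had a mean difference of -0.133 and the standard genes of 0.028, a gap of -0.161 that is described here without a test. Without DJ-1 replicates 3 and 4 the inducible mean was -0.013, the standard mean 0.11 and the gap -0.12. These 2 arrays had the lowest inducible deviations of all hearts, so leaving them out raises the inducible mean by construction. For each heart the deviation of the 3 standard genes from their 8-heart means was subtracted from that of the 3 inducible genes. This gave -0.02, -0.05, -0.18 and -0.07 in DJ-1 replicates 1 to 4 and -0.01, 0.21, 0.09 and 0.02 in placebo replicates 1 to 4. All DJ-1 hearts were below all placebo hearts, but the nearest values, -0.024 for the highest DJ-1 heart and -0.008 for the lowest placebo heart, were close. The groups overlapped with quantile normalization and with cyclic loess, although the gap between the means was -0.16 in both. They also overlapped when any of the 3 pairs was left out, in settings chosen after seeing the data: the gap was -0.11 without Psmb8 and Psmb5, -0.17 without Psmb9 and Psmb6, and -0.21 without Psmb10 and Psmb7. Pair by pair the gaps were -0.27 for Psmb8 minus Psmb5, -0.15 for Psmb9 minus Psmb6 and -0.064 for Psmb10 minus Psmb7, and the groups overlapped in each pair. Among the averages by role or list, that of Psma8 and Psmb11, both within background, also left the groups without overlap, with DJ-1 hearts higher.

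Many leukocytes make the immunoproteasome without stimulation, so their markers are given beside these genes. The mean deviation of the 8 general leukocyte markers was 0.32, 0.39, -0.24 and -0.26 in DJ-1 replicates 1 to 4 and -0.06, 0.30, -0.02 and -0.43 in placebo replicates 1 to 4. That of the 3 inducible genes was 0.07, 0.04, -0.20 and -0.18 in DJ-1 hearts and 0.04, 0.13, 0.08 and 0.02 in placebo hearts. Both were above 0 in DJ-1 replicates 1 and 2 and placebo replicate 2 and below it in DJ-1 replicates 3 and 4. In placebo replicates 1, 3 and 4 they stood on opposite sides of 0, and the inducible genes in placebo replicate 3 were above those in DJ-1 replicates 1 and 2. Of the 8 markers 5 averaged higher after DJ-1, with a median difference of 0.093, and of the 9 lymphocyte markers 4 did, with a median of -0.059. The part of leukocyte content in the inducible genes was not tested.

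The remaining beta subunits, which shape the ring without a proteolytic site, had differences of -0.0029 to 0.19. Psmb2 had the smallest p among them and was at 11.25, 11.25, 11.29 and 11.39 in DJ-1 hearts and at 11.05, 11.09, 11.13 and 11.30 in placebo hearts. Only placebo replicate 4 reached into the DJ-1 range, and the difference was 0.15 (SE 0.0921, 95% confidence interval -0.051 to 0.35, limma adjusted p = 0.824). Psmb4 was at 10.65, 10.53, 10.32 and 10.47 in DJ-1 hearts and at 9.85, 10.58, 10.46 and 10.32 in placebo hearts. Placebo replicate 1 was far below the rest, and the difference of 0.19 was 0.038 without it. Psmb1 and Psmb3 differed by -0.0029 and 0.062. Psmb3 was read by a further probe set, with a difference of 0.096.

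The alpha ring, whose subunits form the gate of the barrel, was split: 3 genes averaged higher and 4 lower after DJ-1, from -0.091 for Psma7 to 0.044 for Psma1. Without DJ-1 replicates 3 and 4 all 7 averaged higher. Psma7, the gene of smallest p in the ring, was at 8.08, 7.88, 7.56 and 7.69 in DJ-1 hearts and at 7.73, 8.09, 7.88 and 7.86 in placebo hearts (limma adjusted p = 0.915). DJ-1 replicates 3 and 4 lay below every placebo heart and replicates 1 and 2 within the placebo range, and the difference without replicates 3 and 4 was 0.086. Psma6 was divided further, at 10.50, 10.52, 10.12 and 9.97 in DJ-1 hearts against 10.12, 10.43, 10.50 and 10.27 in placebo hearts. DJ-1 replicates 1 and 2 lay at the top of all 8 hearts and replicates 3 and 4 at the bottom. Its difference of -0.051 was 0.18 without DJ-1 replicates 3 and 4. Psma3 had 3 probe sets and Psma5 a pair, whose differences lay between -0.051 and -0.015 and were 0.027 and 0.061.

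The regulatory particle averaged lower after DJ-1 for 13 of its 17 genes found by symbol, beside 7470 of all 13693 genes above background. The amounts were small: the median difference was -0.03 and none of the 17 had an unadjusted p under 0.05. The direction turned without DJ-1 replicates 3 and 4, where 4 averaged lower and 13 higher, with a median of 0.032. The ATPases of the base, Psmc1 to Psmc6, differed by -0.074 for Psmc3 to 0.018 for Psmc1, and all 6 averaged higher without DJ-1 replicates 3 and 4. Psmc3, whose protein docks its tail into the alpha ring, was at 8.53, 8.39, 8.22 and 8.28 in DJ-1 hearts and at 8.41, 8.54, 8.42 and 8.34 in placebo hearts (limma adjusted p = 0.909). Again DJ-1 replicates 3 and 4 were below the placebo range, and the difference was 0.032 without them. Psmc4 was the steadiest of the DJ-1 values, between 8.75 and 8.79, against 8.63 to 8.88 in placebo hearts. A further probe set of Psmc1 gave -0.108, against 0.018 for the probe set used, so the probe sets disagreed in sign, within their standard errors of 0.188 and 0.125.

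Among the 11 non-ATPase subunits found by symbol, 9 averaged lower after DJ-1, and 4 did without DJ-1 replicates 3 and 4. Psmd4, the receptor for ubiquitin chains, had the lowest difference and the smallest p of these: it was at 7.89, 7.91, 7.69 and 7.54 in DJ-1 hearts and at 7.95, 7.77, 7.85 and 8.05 in placebo hearts. DJ-1 replicates 3 and 4 lay under all placebo hearts, and the difference was -0.15 (SE 0.111, 95% confidence interval -0.39 to 0.094, limma adjusted p = 0.846), against -0.0057 without these replicates. Psmd14, the deubiquitinase of the lid, was at 9.18 ± 0.053 in DJ-1 and 9.18 ± 0.213 in placebo hearts (SD, n = 4 each). Psmd11, a lid subunit, differed by -0.103, Psmd1 by -0.097 and Psmd2 by -0.068. Psmd1 and Psmd2 encode the large scaffold subunits of the base. A further probe set of Psmd2 gave 0.035. Psmd6 and Psmd8 had the higher means, with 0.072 and 0.047, and Psmd3, Psmd7, Psmd12 and Psmd13 lay between -0.048 and -0.0038.

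The activators bind the ends of the core in place of the regulatory particle. Psme4, which encodes the activator PA200, had the smallest p of the whole family. It was at 10.30, 10.22, 10.31 and 10.20 in DJ-1 hearts and at 10.59, 10.40, 10.26 and 10.51 in placebo hearts. Placebo replicate 3 lay within the narrow DJ-1 range and the other placebo hearts above it. The difference was -0.18 (SE 0.0968, 95% confidence interval -0.395 to 0.029, limma adjusted p = 0.824), or between 0.76-fold and 1.02-fold, and with each array left out it ran from -0.24 to -0.13. A gene of smallest p out of 50 is the end of a ranking and not a call.

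Psme1 and Psme2 encode the interferon-inducible activator PA28. Psme1 was at 9.98, 9.89, 9.95 and 10.03 in DJ-1 hearts and at 9.92, 9.76, 9.94 and 10.03 in placebo hearts, with a difference of 0.051 (limma adjusted p = 0.938). Psme2 was at 9.49, 9.20, 9.11 and 9.06 in DJ-1 hearts and at 8.91, 9.41, 9.21 and 9.35 in placebo hearts, with a difference of -0.0093 (limma adjusted p = 0.993). DJ-1 replicate 1 was its highest heart and placebo replicate 1 its lowest. A near copy of Psme2 exists in the mouse genome, so part of its signal may come from the copy. Psme3, the nuclear activator PA28-gamma, was at 9.35, 9.35, 9.29 and 9.07 in DJ-1 hearts and at 9.47, 9.24, 9.19 and 9.11 in placebo hearts, and differed by 0.013 (limma adjusted p = 0.988). The groups overlapped in all of these activators.

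Psmf1, which encodes the inhibitor PI31, was at 7.81, 7.91, 7.92 and 7.89 in DJ-1 hearts and at 7.76, 7.72, 7.81 and 7.88 in placebo hearts. DJ-1 replicates 2, 3 and 4 lay above all placebo hearts and replicate 1 among them, and the difference was 0.09 (SE 0.0848, limma adjusted p = 0.871). The chaperones that build the core, Psmg1 to Psmg4, differed by -0.053 to 0.19. The highest was Psmg3, at 4.85, 4.72, 4.91 and 5.11 in DJ-1 hearts and at 4.86, 4.75, 4.85 and 4.39 in placebo hearts, close above the background level of 4.74. Its difference of 0.19 (limma adjusted p = 0.838) was 0.078 without placebo replicate 4. The chaperones of the base differed by -0.129 for Psmd5, -0.063 for Psmd10, also known as gankyrin, and 0.036 for Psmd9. Psmd5 was at 7.32, 6.93, 6.80 and 7.07 in DJ-1 hearts and at 7.10, 7.35, 6.96 and 7.21 in placebo hearts (limma adjusted p = 0.879), with DJ-1 replicates 2 and 3 below the placebo range.

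Psma8 belongs to the proteasome of the testis and Psmb11 to that of the thymic cortex, and both were within the background here. Psma8 was at 3.69, 3.55, 3.68 and 3.67 in DJ-1 hearts and at 3.44, 3.33, 3.32 and 3.80 in placebo hearts. Psmb11 was at 4.27 ± 0.15 in DJ-1 and 4.01 ± 0.398 in placebo hearts (SD, n = 4 each). Their differences of 0.18 and 0.26 are thus differences of signal at background level. Psmc3ip was at 5.05, 5.16, 5.31 and 5.12 in DJ-1 hearts and at 4.99, 5.02, 5.05 and 5.11 in placebo hearts, which overlapped. Psmc3ip, a partner of meiotic recombination, and Psme3ip1, a partner of PA28-gamma, differed by 0.12 and 0.047 (limma adjusted p = 0.847 and 0.939).

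Hearts differed from each other more than the groups did, and many subunits moved together from heart to heart. Averaged over the 46 genes above background, the deviation from each gene's mean was 0.12, 0.04, -0.10 and -0.09 in DJ-1 replicates 1 to 4. In placebo replicates 1 to 4 it was -0.05, 0.06, 0.02 and 0.00. DJ-1 replicate 1 was the highest of the 8 hearts for 18 of the 46 genes (39.1%), beside 12.6% of all genes above background, and the lowest for 0. DJ-1 replicates 3 and 4 were the lowest for 11 and 13 of the 46 (23.9% and 28.3%, beside 16% and 19.7% of all genes above background), and placebo replicate 1 for 11 (23.9%, beside 10.3%). These shares describe 8 hearts and were not tested. In the alpha ring the mean deviations were 0.20, 0.07, -0.18 and -0.11 in DJ-1 hearts and -0.16, 0.14, 0.05 and 0.00 in placebo hearts.

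**Figure D3:**
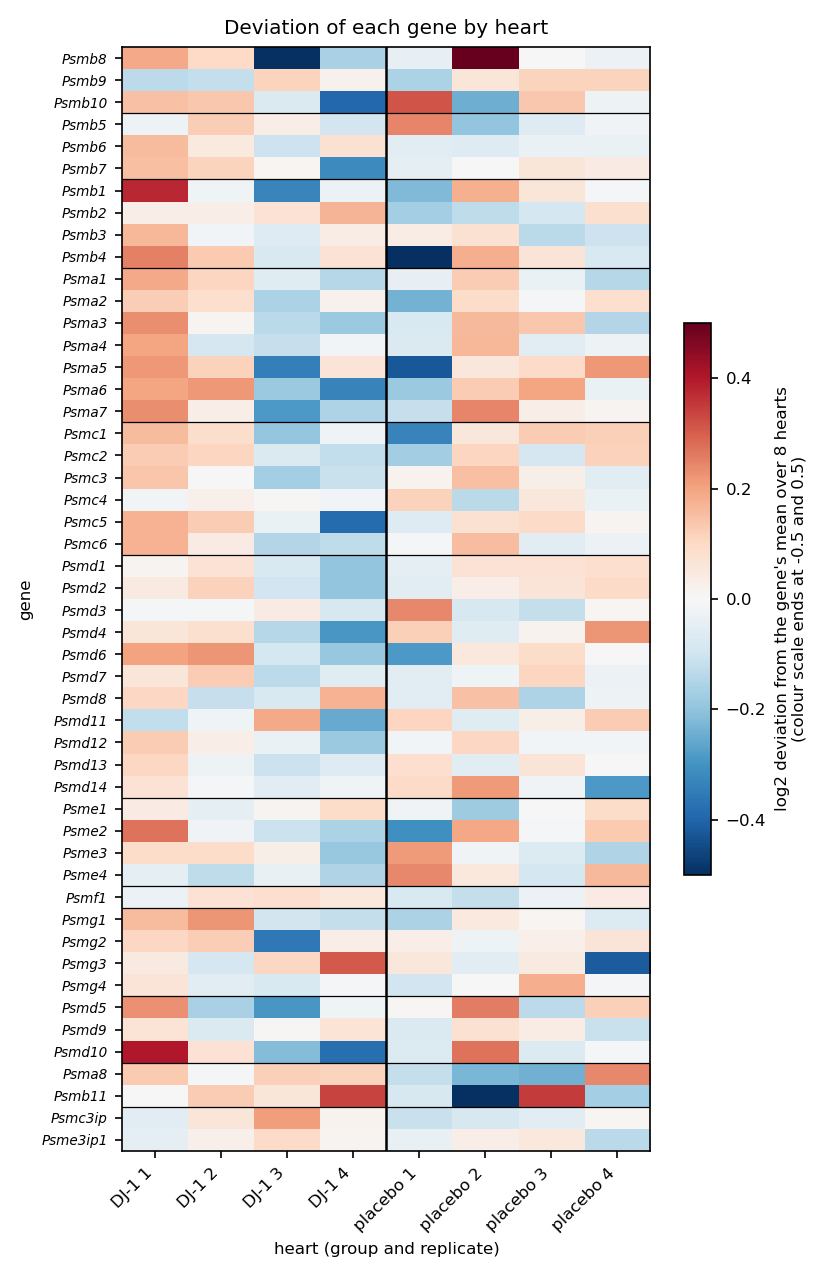
Deviation of each of the 50 genes (rows, ordered by role, with lines between roles) from its mean over the 8 hearts, in each heart (columns, DJ-1 left of the line and placebo right of it). Red is above and blue below the mean on the log2 scale; DJ-1 replicate 1 is red in most rows and DJ-1 replicates 3 and 4 are blue in most rows, while Psmb9, Psmb11, Psme4 and others depart from this.

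The fit without DJ-1 replicates 3 and 4 describes how far the family's direction rested on them. These arrays had the lowest family deviations, so leaving them out raises the family's DJ-1 mean by construction. No placebo array was left out with them. Without DJ-1 replicates 3 and 4 the median difference of the 48 proteasome genes was 0.088, with 40 of 48 higher in DJ-1 hearts. With all arrays these were -0.0055 and 20 of 48. The smallest adjusted p of the family in limma was 0.987 without these replicates. Over all genes tested the median was 0.00041 without them and 0.0082 with all arrays. The count of higher proteasome genes was 16 with DJ-1 replicate 1 left out, 29 with replicate 3 left out and 32 with replicate 4 left out. The sign of the family's median turned with the hearts counted and with the scaling: it was also positive without DJ-1 replicate 3 (0.016), DJ-1 replicate 4 (0.022) or placebo replicate 2 (0.01, with 26 of 48 higher), with quantile normalization (0.019) and with cyclic loess (0.02). Other settings moved it further down, to -0.048 with each array centred on its median, where the median over all genes fell as well, to -0.034. The family's median was -0.038 or -0.018 without placebo replicate 1 or 4, and -0.037 or -0.019 without DJ-1 replicate 1 or 2. Leukocyte and neutrophil markers varied over the same hearts. The mean deviation of 10 neutrophil markers was 0.85, 1.21, -0.11 and -0.55 in DJ-1 replicates 1 to 4 and -0.24, 0.88, -0.61 and -1.43 in placebo replicates 1 to 4. All 10 averaged higher after DJ-1, from 0.11 for Camp to 1.25 for Mmp8, and 1, Lcn2, had an unadjusted p under 0.05. These sizes hung on single hearts: Mmp8 was at 0.803 without placebo replicate 4 and 1.88 without placebo replicate 2, and Lcn2, at 1.07 with all hearts, at 0.65 without placebo replicate 4. Their part in the proteasome genes was not tested.

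**Figure D4:**
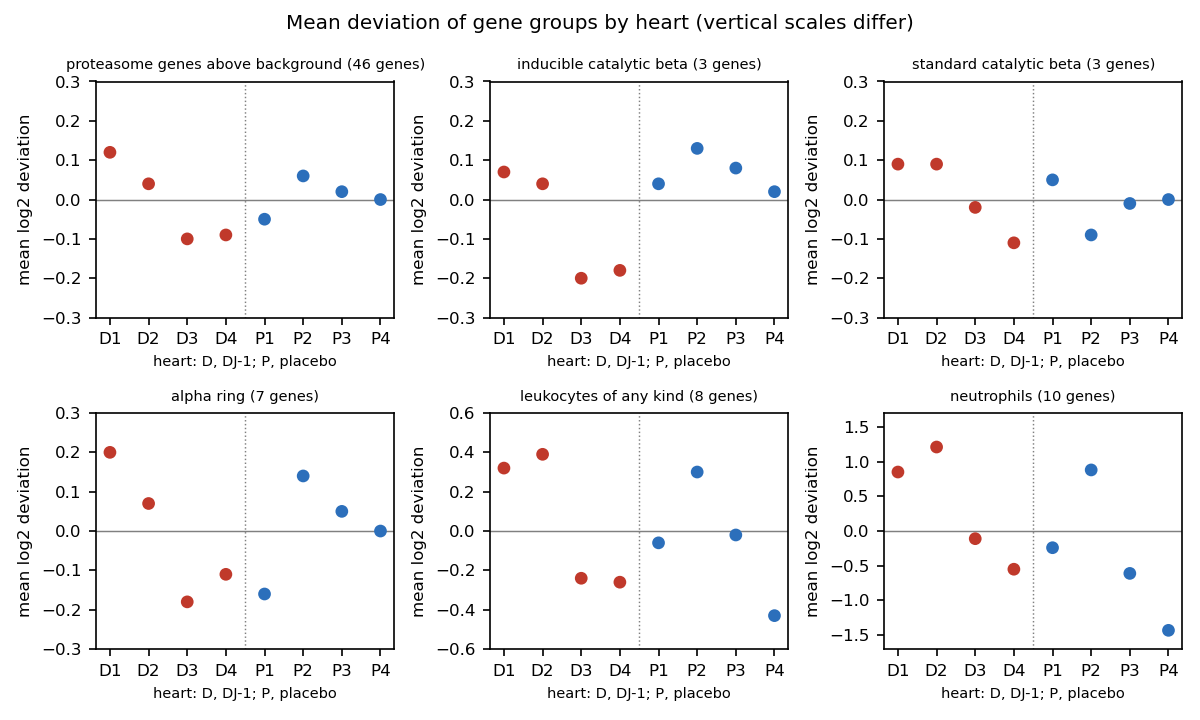
Mean log2 deviation of 6 gene groups from their 8-heart means in each heart, with DJ-1 hearts (red, D1 to D4) left of placebo hearts (blue, P1 to P4). Proteasome groups stay within 0.2 of 0, whereas the neutrophil markers run from -1.43 to 1.21; DJ-1 replicates 3 and 4 are below 0 in all 6 panels.

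Among genes that work with the proteasome none passed the test either. Of 29 listed genes for ubiquitin supply, shuttling, deubiquitination and control of subunit transcription, 20 were measured under a single symbol. Of these 11 averaged higher and 9 lower after DJ-1, the median difference was 0.0038, and 0 had an unadjusted p under 0.05. Nfe2l1, the factor that raises standard subunit transcription when proteasome activity is short, was at 10.01 in DJ-1 and 9.99 in placebo hearts, and Nfe2l2 (NRF2) at 9.52 in DJ-1 and 9.43 in placebo hearts. The genes of smallest p were Zfand2a, an arsenite- and heat-inducible partner of the proteasome, with 0.17, Ecpas, a proteasome adaptor, with -0.14, and the shuttle gene Ubqln4 with -0.13. Each of these had a limma adjusted p between 0.824 and 0.845.

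In class I antigen processing, the pathway that uses the immunoproteasome, 18 of 21 listed genes were measured. In all, 13 averaged higher and 5 lower after DJ-1, with a median difference of 0.067, and 0 had an unadjusted p under 0.05. Tap1, the peptide transporter gene that neighbours Psmb9, was at 6.26 in DJ-1 and 6.25 in placebo hearts. Irf1, an interferon-driven activator of the inducible subunits, was at 8.14 in DJ-1 and 8.07 in placebo hearts. Its difference of 0.068 had the largest SE of the listed genes, 0.276, so a sizeable difference either way is not excluded. Interferon-gamma itself (Ifng) was within background at 4.43 in DJ-1 and 4.33 in placebo hearts. Irf8, a factor of myeloid cells, had the smallest p, at 7.49, 7.71, 7.08 and 7.28 in DJ-1 hearts and 7.18, 7.30, 7.02 and 6.76 in placebo hearts. The groups overlapped, and the difference of 0.32 (SE 0.153) had a limma adjusted p of 0.824. Nlrc5, which drives class I genes, differed by 0.21, or 0.105 with the mean of its 19 probe sets, and Irf2 by -0.18. Without DJ-1 replicates 3 and 4 the differences were 0.53 for Irf8, 0.0009 for Nlrc5 and 0.049 for Irf2.

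Among all 13693 genes above background 7470 averaged lower after DJ-1. Beside this, the remaining marker lists differed as follows. Endothelial markers averaged lower after DJ-1 in 7 of 8 genes, with a median of -0.11, led by Kdr with -0.48 (unadjusted p = 0.0122 in limma). Cardiomyocyte markers averaged lower in 8 of 10, with a median of -0.028, and Ttn and Ryr2 had the lowest values, -0.31 and -0.18. Among 8 monocyte and macrophage markers 4 averaged higher, with a median of -0.011 and Cd14 highest at 0.62, or 0.298 without DJ-1 replicate 2. The lymphocyte gene Cd79a differed by -0.44 (unadjusted p = 0.0258 in limma) at a level near background. Ighm, next in p in that list, went the other way with 0.21, or 0.092 with the mean of its probe sets. Of the 9 lymphocyte markers 4 averaged higher and 5 lower. None of these passed after adjustment (smallest limma adjusted p of each list, 0.824).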

How the data were processed

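Total RNA from each heart (100 ng, RNA integrity number above 7) was converted to cRNA and then to biotin-labelled DNA for Affymetrix whole-transcript arrays, as the labels' protocols describe. The deposited values are log2 expression of 35556 probe sets on 8 arrays, made by the authors with RMA, per the submitters' processing notes. The RMA version is not given in the sources used here. Array number limits precision, and p-values measure the spread between these samples, taken as separate mice.

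Platform annotation gave 21789 probe sets a single symbol, 1621 several and 12146 none; 21698 were found in the RefSeq gene table, which changed 0 symbols. The probe set of highest mean stood for each of 999 genes with several. Groups were compared with limma 3.58.1 (lmFit and eBayes; R 4.3.3); two-sided p-values were Benjamini-Hochberg adjusted over 19938 genes, with 0.05 as the threshold; the script was tested on simulated data. Alternatives changed normalization, probe sets, filter, variance model, replicate block and arrays left out. Values were given per heart for catalytic and activator genes and for the gene of smallest p in each role. The genes of smallest p were named for the proteasome partners and for class I antigen processing, with values per heart for Irf8. From the cell marker lists only some genes were named, and these were not always those of smallest p. Psma6, Psmb4, Psmc4, Psmd14, Nfe2l1, Nfe2l2, Tap1, Irf1, Ifng and Camp were added after their values were seen. Members and lists were chosen with earlier results of these data known. Scan dates were not used here.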

Additional observations from a re-analysis of the deposited data

Results flagged for a closer look

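In 7 of 100 groups of 4 hearts among the 50 genes a single heart stood far from the rest, where chance alone gives about 1 in 20. The measure, given in brackets, is the gap to the nearest heart divided by the range of the group, set against Dixon's 95% critical value for 4 values. Psmb8 was at 6.21 in placebo replicate 2 and at 5.60 to 5.64 in the other placebo hearts (0.941). Placebo replicate 2 was also apart for Psmd12, at 8.96 beside 8.84 (0.929), and for Psmd10, at 7.85 beside 7.51 to 7.57 (0.835). Placebo replicate 1 was low for Psmd1, at 10.11 beside 10.23 to 10.24 (0.903), and for Psmc1, at 8.45 beside 8.84 to 8.91 (0.854). Psmd7 was high in placebo replicate 3, at 9.25 beside 9.09 to 9.12 (0.844). Psma8, within background, was low in DJ-1 replicate 2, at 3.55 beside 3.67 to 3.69 (0.864). Among the averaged lists the endothelial markers were low in placebo replicate 1, at -0.07 beside 0.10 to 0.12 (0.916).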

How the results depend on the processing

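No proteasome gene passed an adjusted p of 0.05 under any alternative run: over 845 values of the 50 genes the smallest adjusted p was 0.704, and 3 values moved by more than the replicate SD, those of Psma6, Psmd2 and Psmg1 without DJ-1 replicates 3 and 4. The count of family genes at an unadjusted p under 0.05, 0 with all arrays, was 1 with an intensity trend (Psme4) and ran from 0 to 2 with single arrays left out: 2 without placebo replicate 3 (Psmb11 with 0.42 and Psme4 with -0.24) and 1 without placebo replicate 4 (Psma8 with 0.28). Over all genes the count past adjusted p 0.05 ran from 0 to 1 with single arrays left out, the 1 being Pramel27, at background level, without DJ-1 replicate 3. The count at an unadjusted p under 0.05, 1194, was 553 among genes above the median level, where fewer genes were tested. That filter removed Psmb8, so it gives no value for the catalytic contrast. The contrast of inducible with standard genes kept its sign throughout, from -0.19 to -0.12 when each array was omitted, and -0.12 when DJ-1 replicates 3 and 4 both were, where the inducible mean was -0.013 and the standard mean 0.11. The labels name nothing that same-numbered hearts of the groups share beyond the number. Their deviations correlated at 0.0045, 0.171, 0.177 and 0.0081, and 1 of 8 arrays correlated best with its own number. So few pairs cannot exclude a pairing. With the replicate block 1302 genes had an unadjusted p under 0.05 and 0 family genes did. The precision of 4 arrays a group limits every statement here, and the cause of each change was not tested.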
